A study of Mus musculus with 2 samples.

Results

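The corticosteroid and CRH signalling genes were 8 genes taken by symbol from the 48816 features counted in the nuclei of the mouse stria vascularis (SV). They were the receptors Nr3c1 and Nr3c2, the enzymes Hsd11b1 and Hsd11b2, the glucocorticoid-responsive genes Fkbp5 and Tsc22d3, and Crhr1 and Crhbp of the corticotropin-releasing hormone (CRH) system. All 8 were present in the feature list, 7 had at least 1 UMI (unique molecular identifier, 1 counted RNA molecule) in the nuclei kept of both datasets, and Hsd11b2 had 1 UMI in all. Corticosteroids are given for several forms of hearing loss, and the comparison made here asks which cell types of the SV hold the receptors and which hold the transcripts that these receptors are known to induce.

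Glucocorticoids such as corticosterone cross the membrane and bind a receptor held in the cytoplasm by heat shock proteins, which then enters the nucleus and binds DNA to raise or lower transcription of its targets. The mineralocorticoid receptor, which controls sodium transport in epithelia, binds aldosterone and glucocorticoids with similar affinity, and in classical aldosterone target cells the enzyme 11-beta-hydroxysteroid dehydrogenase type 2 removes the glucocorticoid. CRH acts on membrane receptors and is sequestered by a secreted binding protein. The SV is the epithelium of the lateral wall of the cochlea that secretes potassium into endolymph, with marginal cells facing the endolymph, intermediate cells of melanocyte origin and a sealing layer of basal cells. Root and spindle cells flank it, and Reissner's membrane adjoins it.

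Nuclei were from CBA/J mice at P30 (postnatal day 30), with tissue pooled from several animals, and no steroid or other treatment is given in the labels. The MethFix dataset was 1 library of nuclei fixed in methanol after isolation (5 to 6 mice by the labels) and the RNAlater dataset 1 library of nuclei isolated from tissue kept in RNAlater (10 mice by the labels). For the RNAlater library the study's methods give another number of mice than the labels do. With 1 library per preservation method there was no replicate, so no test was made. All intervals are 95% intervals of the counts that cover counting error only. Those of log2 ratios to the other 5 classes are approximate, from Poisson variances, and the rest are exact.

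The MethFix library held 4748 barcodes and the RNAlater library 3868, with 21027671 and 17681824 UMIs. After filtering, 3372 and 2311 nuclei were kept, of which 3034 and 2075 fell into 6 classes named from marker genes. The datasets share 3323 barcodes. Over these barcodes 89.4% of the MethFix UMIs were also counted for the same gene and barcode in the RNAlater matrix, 93.9% for Nr3c2 and 85.6% for Fkbp5, and 2043 of the 2044 nuclei placed in the 6 classes in both datasets were in the same class. Of the 2311 RNAlater nuclei kept, 2276 had a barcode also found in the MethFix matrix. How libraries with different preservation labels came to share barcodes and counts is not given in the sources used here. The libraries were therefore read as 1 sample, and neither their closeness nor a call in both is replication. The 965 MethFix nuclei with barcodes found in that matrix alone are given as a separate set where they bear on a result. Of 32 marker entries, 30 in each library were at least 2-fold higher in their own class than in the mean of the other 5. The exceptions were Dkk2 of the spindle list, which was also high in Reissner's membrane nuclei, and Oc90 of the Reissner list, which had 0 UMIs there. As the classes were named from these same markers, the count describes the names and is no check of them.

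Levels are UMIs of a gene in a class scaled to a class total of 1000000 UMIs (CPM). A gene is called past the fold in a class where the log2 ratio of its CPM to the mean of the other 5 classes was at least 1 in both libraries, among the 11063 genes with at least 50 UMIs over the 6 classes in each library. Past this fold were 8.9% of genes in marginal, 8.09% in intermediate, 10.3% in basal, 6.13% in root, 5.53% in spindle and 4.98% in Reissner's membrane nuclei. Of the 8 genes, 5 passed the minimum of UMIs, and 4 of the 5 were past the fold in a class, namely Nr3c2, Fkbp5 and Tsc22d3 in basal nuclei (3 of 5 against the 10.3% of all genes) and Crhbp in Reissner's membrane nuclei (1 of 5 against 4.98%). The 3 below the minimum were Crhr1, Hsd11b1 and Hsd11b2. Outside the class of their call, Fkbp5 had 50 UMIs in MethFix and 47 in RNAlater, Tsc22d3 42 and 33, and Crhbp 37 and 44. These genes met the minimum in both libraries only through that class, so the shares are descriptions and no test.

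**Figure D1:**
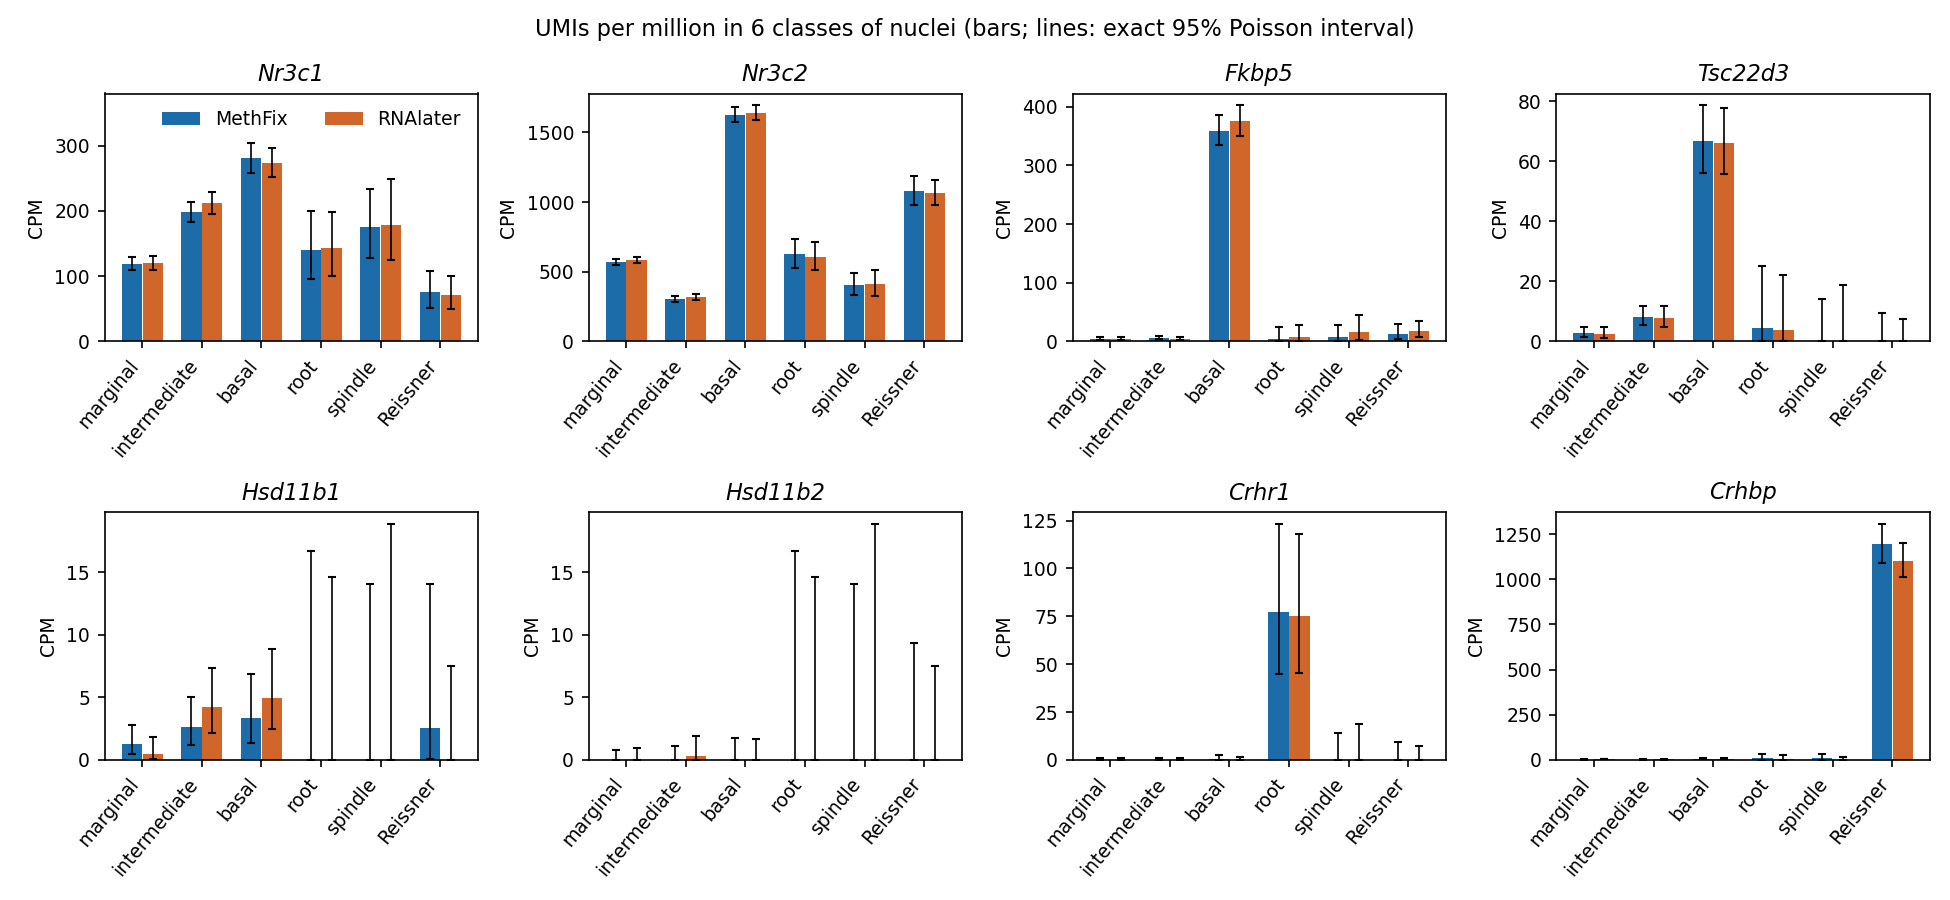
Counts scaled to 1000000 UMIs per class (CPM, vertical axis, linear from 0, with its own scale for each gene) of the 8 genes in marginal, intermediate, basal, root, spindle and Reissner's membrane nuclei of the MethFix (blue) and RNAlater (orange) datasets, with exact 95% Poisson intervals of the counts. Nr3c1 and Nr3c2 had UMIs in all 6 classes, with both highest in basal nuclei, Fkbp5 and Tsc22d3 stood out in basal, Crhr1 in root and Crhbp in Reissner's membrane nuclei.

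Transcripts of Nr3c1, which encodes the glucocorticoid receptor (chromosome 18 from 39410545 to 39519421, minus strand of GRCm38), were counted in all 6 classes and differed by less than 4-fold between them. In basal nuclei Nr3c1 stood at 281 CPM (259 to 305) in MethFix nuclei and 274 (253 to 297) in RNAlater. In intermediate nuclei it stood at 198 CPM (183 to 213) and 212 (195 to 229), and in spindle nuclei at 175 (128 to 234) and 179 (125 to 249). The order then continued with root nuclei at 140 and 143 CPM, marginal nuclei at 119 and 120, and Reissner's membrane nuclei at 75.7 (51.1 to 108) and 71.6 (49.9 to 99.6).

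The same order was seen in both datasets, but not every step of it exceeded the counting error. Basal nuclei were above intermediate nuclei by 1.42-fold (1.27 to 1.59) in MethFix nuclei and 1.29-fold (1.15 to 1.45) in RNAlater, and marginal nuclei were above Reissner's membrane nuclei by 1.57-fold (1.08 to 2.34) and 1.67-fold (1.19 to 2.43). The steps from intermediate to spindle, spindle to root and root to marginal nuclei had intervals that included 1 in both datasets. From the highest to the lowest class the fold was 3.71 (2.57 to 5.55) in MethFix nuclei and 3.83 (2.72 to 5.54) in RNAlater. The log2 ratio of basal nuclei to the other classes was 0.99 (0.79 to 1.19) and 0.92 (0.72 to 1.12), just below the fold of 1, and with every nucleus thinned at random to 1000 UMIs it was 1.22 and 1.17, past it.

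Nr3c2 encodes the mineralocorticoid receptor (chromosome 8 from 76899442 to 77245012, plus strand, overlapping annotated transcripts on both strands). It was highest of the 6 classes in basal nuclei, followed by those of Reissner's membrane. Its basal level was 1626 CPM (1572 to 1682) in MethFix nuclei and 1641 (1588 to 1695) in RNAlater, a log2 ratio to the other classes of 1.45 (1.35 to 1.54) and 1.46 (1.37 to 1.55). Reissner's membrane nuclei had 1081 CPM (981 to 1188) and 1066 (977 to 1162), so basal nuclei were above them by 1.51-fold (1.36 to 1.67) and 1.54-fold (1.40 to 1.69).

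Nr3c2 stood at 625 and 607 CPM in root nuclei and at 572 and 584 in marginal nuclei, which could not be told apart by counting error. Lower again were spindle nuclei with 404 (331 to 489) and 415 (329 to 515), and lowest were intermediate nuclei with 304 (286 to 323) and 318 (298 to 339). This lowest class held 18.7% of the basal level in MethFix and 19.4% in RNAlater, while the 5 basal marker genes stood at 0.222% to 4.20% of their basal level in the same intermediate nuclei. Outside the 6 classes, Nr3c2 stood at 1246 CPM (1105 to 1399) in MethFix fibrocyte and 1152 (990 to 1332) in RNAlater bone nuclei. These intervals overlapped that of Reissner's membrane nuclei in the same library. In MethFix bone nuclei Nr3c2 stood at 616 CPM (419 to 875) and in RNAlater fibrocyte nuclei at 967 (739 to 1242). Of the 89 MethFix fibrocyte nuclei, 41 were in the RNAlater bone class, so the names did not mark the same nuclei in both datasets. Nr3c1 stood at 378 CPM (228 to 590) on 19 UMIs in MethFix bone nuclei and at 222 (154 to 308) in RNAlater bone nuclei. Among the 6 classes, Nr3c1 and Nr3c2 thus differed in their order over the classes, since Reissner's membrane was last for Nr3c1 and second for Nr3c2, and intermediate nuclei were second for Nr3c1 and last for Nr3c2. Over the 12 values (6 classes in both datasets, which share nuclei) Pearson's r of log2(CPM + 1) between the receptors was -0.045, as a description.

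As shares of nuclei with at least 1 UMI, Nr3c2 was found in 88.0% of 751 MethFix and 92.1% of 605 RNAlater basal nuclei, and Nr3c1 in 42.2% and 50.7%. Depth differed between classes, from a median of 2272 UMIs per MethFix nucleus of Reissner's membrane to 4552 in marginal nuclei, and in RNAlater from 2970.5 to 6090. At full depth the share of nuclei with an Nr3c1 UMI was higher in intermediate nuclei (48.1% and 60.5%) than in basal nuclei, the opposite of the order in CPM. Thinned to 1000 UMIs, basal nuclei had the higher share, 23.3% (20.2% to 26.8%) and 23.4% (20.0% to 27.0%) against 17.0% and 17.0% (14.5% to 19.8% and 13.9% to 20.6%) of intermediate nuclei. For Nr3c2 the thinned shares were 70.9% and 72.2% in basal, 60.6% and 58.8% in Reissner's membrane and 24.0% and 23.4% in intermediate nuclei. No class of the 6 is known to lack these receptors, so no share for them serves as a background.

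**Figure D2:**
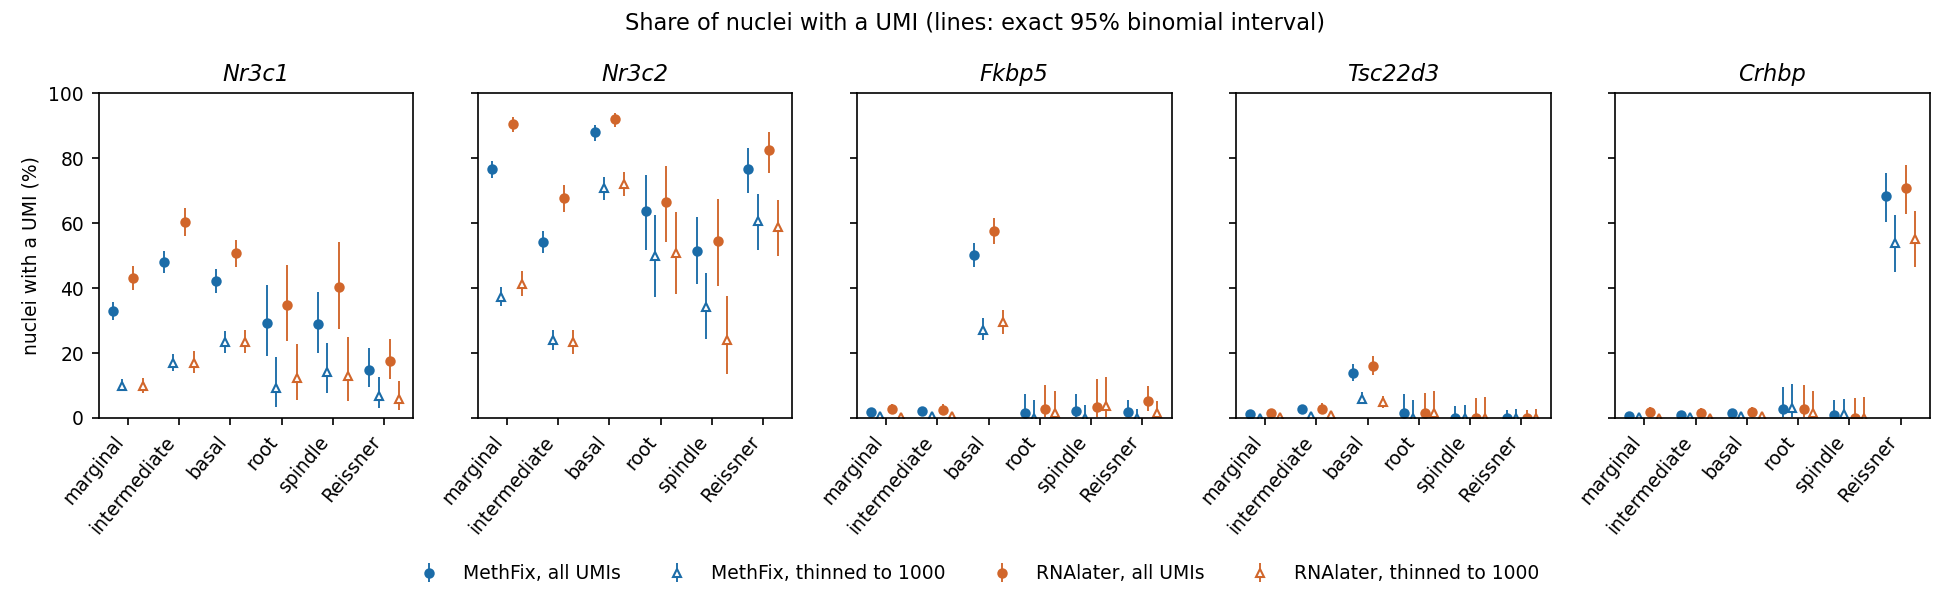
Share of nuclei with at least 1 UMI (percent, vertical axis) of 5 genes in the 6 classes, with all UMIs (filled circles) and with every nucleus thinned to 1000 UMIs (open triangles), in MethFix (blue) and RNAlater (orange), with exact 95% binomial intervals. For Nr3c1 the intermediate class lies above the basal class with all UMIs (48.1% against 42.2% in MethFix) and below it after thinning (17.0% against 23.3%), while the classes highest for Fkbp5, Tsc22d3 and Crhbp are the same at both depths.

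Among the MethFix nuclei with barcodes found in that matrix alone, 131 basal nuclei had 1374 CPM of Nr3c2 (1215 to 1548) and 214 of Nr3c1 (154 to 289), against 242 and 143 CPM in 298 intermediate nuclei and 540 and 106 in 336 marginal nuclei. Basal nuclei were also the highest of these 3 classes for both receptors in this set. Fewer than 10 root nuclei of this set were available. Its 11 Reissner's membrane nuclei had 6 UMIs of Nr3c2, or 367 CPM (135 to 798), and 2 UMIs of Nr3c1, or 122 CPM (14.8 to 442). Its 38 spindle nuclei had 338 CPM of Nr3c2 (217 to 503) and 98.6 of Nr3c1 (39.7 to 203). On these few UMIs Reissner's membrane was neither last for Nr3c1 nor second for Nr3c2 in this set, and its intervals were wide. Its Nr3c2 interval still lay below that of all MethFix Reissner's membrane nuclei (981 to 1188). In the 11 Reissner's membrane nuclei with barcodes in the RNAlater matrix alone, Nr3c2 stood at 1398 CPM (670 to 2570) on 10 UMIs.

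The enzymes that convert glucocorticoids inside the cell were at or near 0 in the 6 classes. Hsd11b2, which encodes 11-beta-hydroxysteroid dehydrogenase type 2 and inactivates corticosterone (chromosome 8 from 105518755 to 105523988, plus strand), was found in 0 of 3372 MethFix nuclei, which allows a share of up to 0.0890% by 3 counts, or 0.109% by the exact interval, as a limit on nuclei with a UMI and not on nuclei that express the gene. In RNAlater it had 1 UMI, in 1 of 2311 nuclei (0.0433%, 0.00110% to 0.241%), an intermediate nucleus. Counted over every barcode of the matrices, Hsd11b2 again had 0 and 1 UMI. At this depth no class with Hsd11b2 could be seen next to the Nr3c2 levels above.

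Hsd11b1 encodes the type 1 enzyme, which in intact cells regenerates active glucocorticoid (chromosome 1 from 193221634 to 193264075, minus strand, where it overlaps annotated transcripts on both strands). It had 23 UMIs over the 6 classes in MethFix and 25 in RNAlater, with a highest level of 3.33 CPM (1.34 to 6.86) and 4.97 (2.48 to 8.90) in basal nuclei and 0 UMIs in root and spindle nuclei. Its level was higher in a small class named fibrocyte from Coch, Slc4a11 and related markers, with 26 UMIs in 89 MethFix nuclei, or 114 CPM (74.5 to 167), and 9 UMIs in 17 RNAlater nuclei, or 143 CPM (65.2 to 271). Against the 6 classes together, at 2.07 and 2.52 CPM, this was 55.0-fold (30.2 to 101) and 56.7-fold (23.3 to 126) higher.

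The fibrocyte and bone names covered different nuclei in the datasets. Of the 89 MethFix nuclei, 41 were in the RNAlater bone class and carried 1 UMI of Hsd11b1, 16 were in the RNAlater fibrocyte class and carried 6, 6 were in an unnamed RNAlater cluster and carried 6, 25 were not kept in RNAlater and carried 13, and 1 was in the basal class and carried 0. That unnamed RNAlater cluster, 41 nuclei led by Kcnk2, Tenm2 and Cdh6, had 11 UMIs of Hsd11b1, or 83.6 CPM (41.7 to 150). These 11 UMIs lay in 3 nuclei, so the value is not a level of the whole cluster. The interval does not cover such differences between nuclei. The MethFix cluster led by Cdh6, Tenm2 and Robo2 had 0 UMIs in 38 nuclei. H6pd, which supplies the NADPH that the type 1 enzyme needs, was the 1 gene of the 3 on the enzyme list to pass the minimum of UMIs, with 98 and 87 over the 6 classes, and was past the fold in no class.

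**Figure D3:**
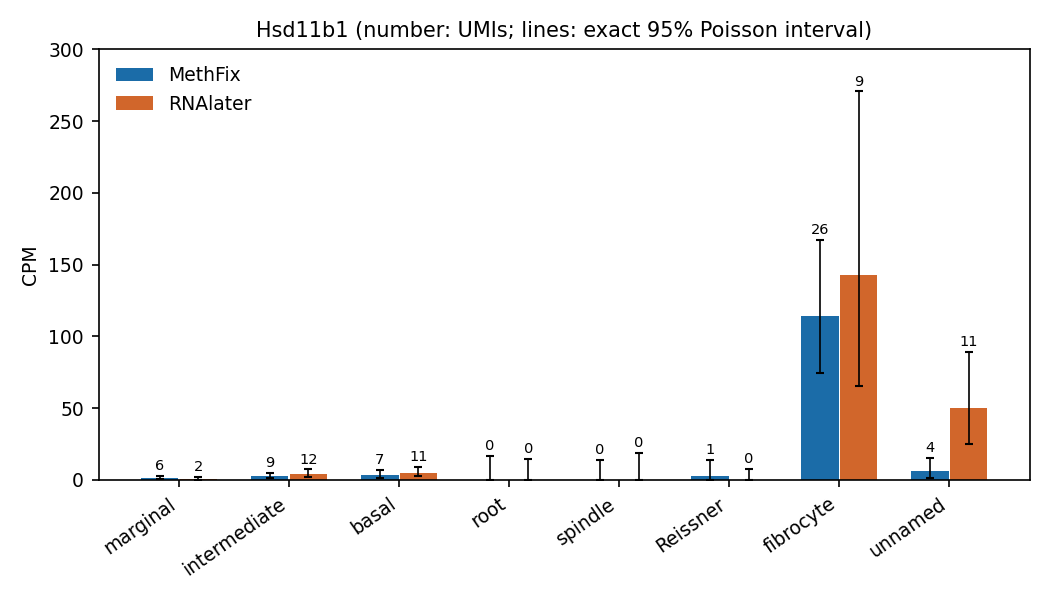
CPM of Hsd11b1 (vertical axis, linear from 0) in the 6 classes, the fibrocyte class and all unnamed nuclei of MethFix (blue) and RNAlater (orange), with exact 95% Poisson intervals and the number of UMIs above each interval. The fibrocyte class stands at 114 and 143 CPM on 26 and 9 UMIs, and each of the 6 classes is below 5 CPM.

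Fkbp5, a co-chaperone of the receptor complex that glucocorticoids induce and that lowers hormone binding of the receptor (chromosome 17 from 28399094 to 28517527, minus strand, overlapping annotated transcripts on both strands), was highest of the 6 classes in basal nuclei. It stood there at 360 CPM (334 to 386) in MethFix nuclei and 376 (351 to 403) in RNAlater. In the other 5 classes it stood between 4.53 and 12.6 CPM in MethFix and between 4.57 and 18.4 in RNAlater, highest in Reissner's membrane nuclei in both. The log2 ratio of basal nuclei to the others was 5.67 (4.93 to 6.41) and 5.195 (4.51 to 5.88). Against Reissner's membrane nuclei, the next class, basal nuclei were 28.5-fold (12.2 to 88.0) and 20.4-fold (10.7 to 44.8) higher.

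Fkbp5 was found in 50.2% of MethFix and 57.5% of RNAlater basal nuclei (27.3% and 29.5% after thinning) and in 1.90% and 2.84% of marginal nuclei, which are deeper. The levels outside the basal class were 1.21% to 4.90% of the basal level, in each class within the range of the 5 basal marker genes there. That range was 0.320% to 6.47% of their basal level in marginal nuclei and 0.222% to 4.20% in intermediate nuclei. It reached 36.04% in root, 27.81% in spindle and 15.78% in Reissner's membrane nuclei, too wide for the comparison to decide there. Whether these markers are themselves expressed in those classes was not tested. Fkbp5 in those classes could thus not be told apart from RNA carried over from basal nuclei. Outside the 6 classes, Fkbp5 stood at 74.6 CPM on 17 UMIs in MethFix fibrocyte nuclei and 15.8 on 1 UMI in RNAlater fibrocyte nuclei. It stood at 59.7 CPM (12.3 to 174) on 3 UMIs in MethFix bone nuclei and 88.6 (48.4 to 149) on 14 UMIs in RNAlater bone nuclei, and at 70.5 (35.2 to 126) on 11 UMIs in an RNAlater cluster led by Stab1, Kcnd2 and Slc8a1. These values were below the basal level, and the bone and fibrocyte names covered different nuclei in the datasets, as given above.

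Tsc22d3 encodes GILZ, a glucocorticoid-induced leucine zipper protein with anti-inflammatory action (chromosome X from 140539528 to 140600659, minus strand), and was likewise highest of the 6 classes in basal nuclei. Basal nuclei had 66.6 CPM (56.0 to 78.6) on 140 UMIs in MethFix and 66.0 (55.7 to 77.6) on 146 UMIs in RNAlater. Intermediate nuclei came next with 8.27 (5.50 to 11.95) and 7.73 (4.84 to 11.7), and basal nuclei were 8.05-fold (5.34 to 12.5) and 8.54-fold (5.43 to 14.0) above them. The intermediate level was 12.4% and 11.7% of the basal level, above the 0.222% to 4.20% at which the 5 basal marker genes stood there. Marginal nuclei had 2.75 and 2.54 CPM, root nuclei 1 UMI in each dataset, and spindle and Reissner's membrane nuclei 0 UMIs. Outside the 6 classes, endothelial nuclei had 68.2 CPM (1.73 to 380) on 1 UMI in MethFix and 227 (46.8 to 663) on 3 UMIs in RNAlater. Bone nuclei had 39.8 (4.82 to 144) and 31.6 (10.3 to 73.8), with intervals that overlapped those of basal nuclei, and fibrocyte nuclei 17.6 and 15.8. The bone and fibrocyte names again covered different nuclei in the datasets. The log2 ratio of basal nuclei to the other classes was 4.42 (3.51 to 5.34) and 4.54 (3.64 to 5.43). In the 131 basal nuclei of the MethFix matrix alone, Fkbp5 stood at 285 CPM (215 to 370) on 56 UMIs and Tsc22d3 at 40.7 (17.6 to 80.2) on 8 UMIs, against 4.65 CPM (1.27 to 11.9) of each in its marginal nuclei. In its intermediate nuclei Fkbp5 stood at 15.6 CPM (8.06 to 27.3) and Tsc22d3 at 10.4 (4.49 to 20.5), and for Tsc22d3 this interval overlapped that of basal nuclei.

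The contrast between the receptors and the response genes Fkbp5 and Tsc22d3 was thus one of spread over the classes. It did not extend to all response genes. On the wider list described below, 10 of 19 were past the fold in basal nuclei (52.6% against 10.3% of all genes). In marginal nuclei 6 were past it (31.6% against 8.9%), and in each other class 1 or 2 were. Marginal nuclei held 119 and 120 CPM of Nr3c1 and 572 and 584 of Nr3c2 but no more than 5.08 CPM of Fkbp5 and 2.75 of Tsc22d3. Reissner's membrane nuclei, second in Nr3c2 over all nuclei kept but not in the MethFix matrix alone, had 12.6 and 18.4 CPM of Fkbp5 and 0 UMIs of Tsc22d3. Whether hormone reached these nuclei to the same degree was not measured.

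Basal nuclei fell into 3 clusters in MethFix and 4 in RNAlater, and the 8 genes had no part in making them. Nr3c2, Fkbp5 and Tsc22d3 were each highest in the cluster led by Gm12153, Fat2 and Cacna1e in both datasets. There Fkbp5 stood at 445 CPM (390 to 506) and 507 (450 to 570), and it was lowest at 297 (250 to 350) in the MethFix cluster led by Sorcs3, Col27a1 and Cytl1 and at 258 (208 to 316) in the RNAlater cluster led by Scd1, Kif1c and Polr2m, with 259 (217 to 307) in the one led by Sorcs3, Col27a1 and Gm14505. The highest cluster was above the lowest by 1.50-fold (1.21 to 1.86) and 1.96-fold (1.55 to 2.51) for Fkbp5, by 1.91-fold (1.12 to 3.33) and 2.07-fold (1.21 to 3.65) for Tsc22d3, and by 1.23-fold (1.14 to 1.34) and 1.36-fold (1.22 to 1.51) for Nr3c2. For Nr3c1 the fold was 1.22 (0.955 to 1.56) and 1.23 (0.985 to 1.54), with intervals that included 1. Highest and lowest were picked from these values, so the folds describe the range and are not a test. The median mitochondrial share was 6.61% in the RNAlater cluster led by Scd1 and 3.84% in the MethFix cluster led by Gm12153 and Scd1, lowest for Nr3c2. It was 0.511% in MethFix and 0.407% in RNAlater in the clusters led by Gm12153 and Fat2, and 0.468% and 0.322% in those led by Sorcs3. The part of this share in the folds was not tested.

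**Figure D4:**
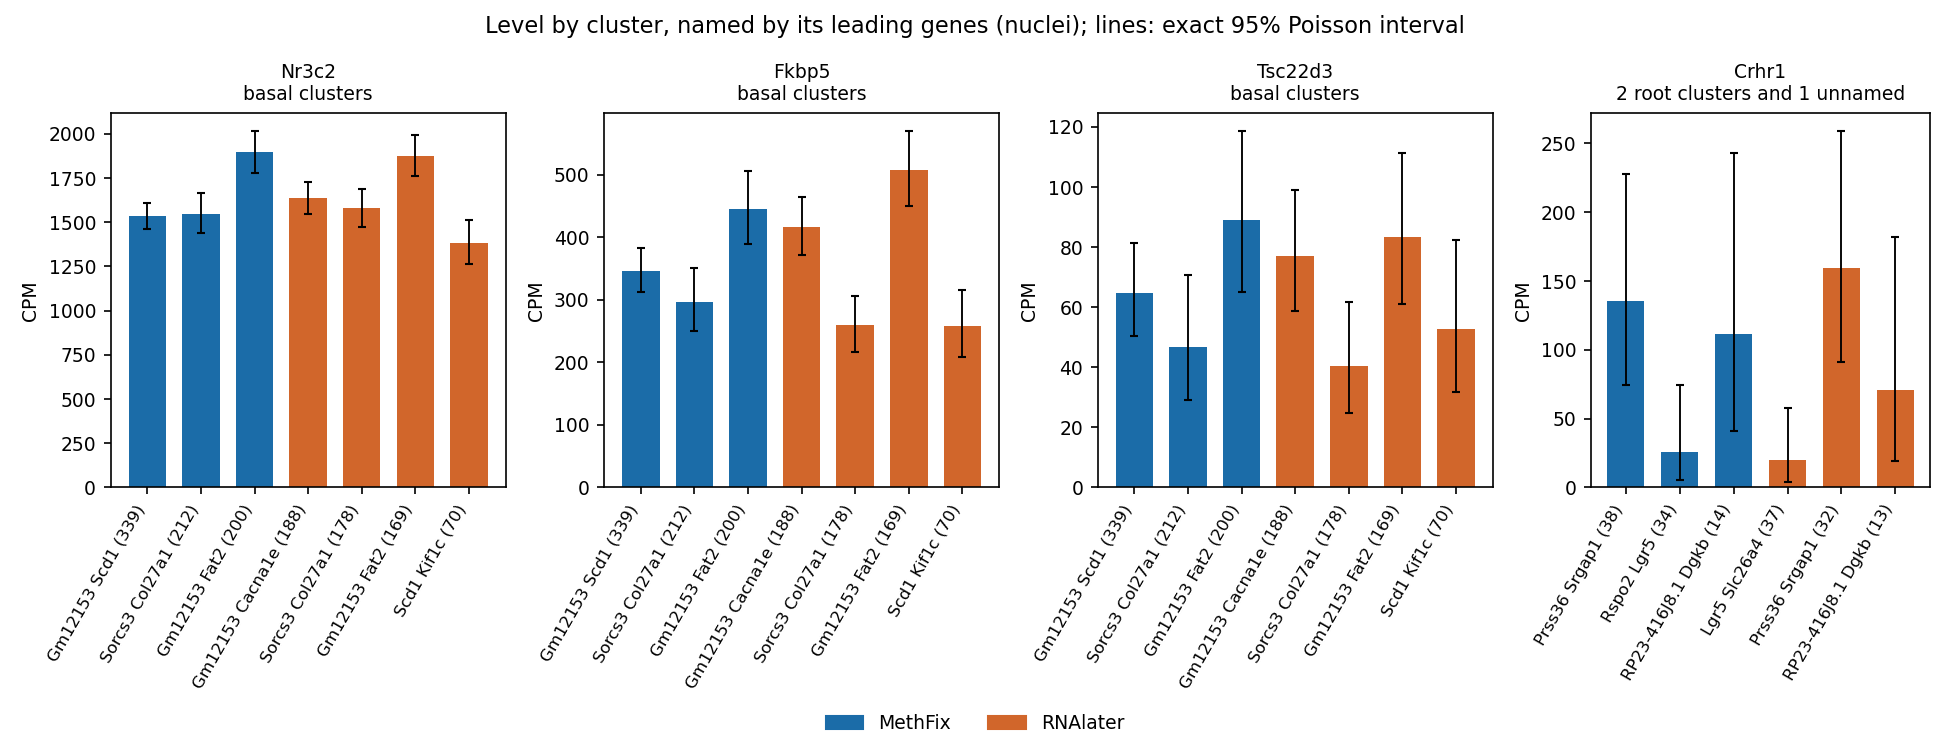
CPM (vertical axis, linear from 0) of Nr3c2, Fkbp5 and Tsc22d3 in the basal clusters and of Crhr1 in 2 root clusters and 1 unnamed cluster per dataset, each named by its first leading genes with its number of nuclei, in MethFix (blue) and RNAlater (orange), with exact 95% Poisson intervals. The clusters led by Gm12153 and Fat2 are highest for Nr3c2, Fkbp5 and Tsc22d3, and the root clusters led by Prss36 and Srgap1 have 136 and 160 CPM of Crhr1 against 25.5 and 19.8 in those led by Lgr5, Rspo2 and Slc26a4.

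Promoter windows are shown for the pair of glucocorticoid-responsive genes that stood out in basal nuclei and for the response gene Sgk1, which did not, because the receptor binds a known element. The windows are 300 bases around RefSeq gene starts on GRCm38.p6, written 5′ to 3′ on the strand of the gene. Capitals mark the hexamer TGTTCT of the receptor element, on either strand. The full site searched was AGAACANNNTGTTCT, which holds that hexamer on each strand. The Tsc22d3 window shown is the 1 of 3 with the hexamer. The Sgk1 window shown is the 1 of 6 with the full site, and the hexamer alone occurs in 2 of the others. The Fkbp5 window (chr17:28486100-28486399, minus strand) holds neither. The Tsc22d3 window is chrX:140600473-140600772 on the minus strand, and the Sgk1 window is chr10:21993640-21993939 on the plus strand, with the full site at bases 62 to 76.
Fkbp5: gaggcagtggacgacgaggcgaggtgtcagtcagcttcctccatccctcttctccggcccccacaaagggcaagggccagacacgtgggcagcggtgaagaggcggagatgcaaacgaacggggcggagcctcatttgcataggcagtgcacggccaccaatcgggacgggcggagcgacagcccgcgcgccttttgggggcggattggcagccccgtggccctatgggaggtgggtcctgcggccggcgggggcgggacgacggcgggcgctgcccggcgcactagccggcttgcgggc
Tsc22d3: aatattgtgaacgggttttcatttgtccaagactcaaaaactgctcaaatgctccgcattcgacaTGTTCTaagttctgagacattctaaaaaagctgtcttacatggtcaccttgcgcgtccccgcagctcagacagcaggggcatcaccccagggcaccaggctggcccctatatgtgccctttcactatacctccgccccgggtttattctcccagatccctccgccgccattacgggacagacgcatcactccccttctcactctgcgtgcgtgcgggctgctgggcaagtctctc
Sgk1: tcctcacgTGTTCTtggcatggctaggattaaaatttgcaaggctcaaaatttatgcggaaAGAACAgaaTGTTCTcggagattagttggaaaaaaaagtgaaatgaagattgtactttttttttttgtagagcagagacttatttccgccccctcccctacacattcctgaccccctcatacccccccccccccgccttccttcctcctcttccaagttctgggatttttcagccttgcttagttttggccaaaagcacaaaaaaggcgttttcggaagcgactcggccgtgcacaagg

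The hexamer occurred in 19.0% of all 32851 windows of this length and the full site in 3 of them (0.00913%), 1 of which is the Sgk1 window. Of the 8 genes, 6 had a window, and 1 of their 8 windows held the hexamer. Of the 24 genes on a list of known glucocorticoid response genes, 21 had a window, and 4 of their 32 windows (12.5%) held the hexamer. A match is a run of letters, not a bound site, and these windows do not cover introns or distant elements.

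Crhr1 encodes the type 1 receptor of CRH (chromosome 11 from 104132855 to 104175523, plus strand) and was highest in root nuclei among the 6 classes. Root nuclei had 17 UMIs in MethFix, 77.0 CPM (44.9 to 123), and 19 UMIs in RNAlater, 75.4 CPM (45.4 to 118). Of the other 5 classes, basal nuclei had 1 UMI in MethFix, and the rest had 0 in both datasets. Outside the 6 classes, unnamed nuclei had 7 of the 25 UMIs in MethFix and 4 of the 23 in RNAlater. With all UMIs, 12 of 72 MethFix root nuclei (16.7%, 8.92% to 27.3%) and 13 of 69 RNAlater root nuclei (18.8%, 10.4% to 30.1%) had a UMI, and after thinning 9.09% and 4.62%. In marginal nuclei the share was 0 of 1105 in MethFix and 0 of 668 in RNAlater.

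The UMIs of Crhr1 came mainly from 1 of the 2 root clusters. The cluster led by Prss36, Srgap1 and Epyc held 14 of the 17 MethFix UMIs in 38 nuclei, 136 CPM (74.2 to 228), and 16 of the 19 RNAlater UMIs in 32 nuclei, 160 CPM (91.2 to 259). The cluster led by Lgr5, Slc26a4 and Rspo2 held 3 UMIs in each dataset, 25.5 CPM (5.26 to 74.5) and 19.8 (4.08 to 57.8). The fold between the clusters was 5.33 (1.49 to 28.9) and 8.07 (2.31 to 43.2), and the pair was singled out after these values were seen.

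By its markers the first of these root clusters stood apart from the second. It had 650 and 539 CPM of Slc26a4, the pendrin gene, against 4462 and 4299, and 1281 and 1167 CPM of Epyc against 382 and 409. It had 87.3 and 99.8 CPM of Lgr5 against 1275 and 1200, and 29.1 and 39.9 of Kcnj16 against 127.5 and 138.5. It was thus below the second cluster in every marker of the root list but Epyc. It also had 2978 and 2813 CPM of Ceacam16 and 213 and 229 of Otoa, from the list of tectorial membrane genes, with 0 UMIs of Tecta and Tectb. An unnamed cluster of 14 MethFix and 13 RNAlater nuclei, led by RP23-416J8.1 and Dgkb, with 6490 and 7169 CPM of Ceacam16 and 0 UMIs of Slc26a4, had 6 and 4 UMIs of Crhr1, 112 CPM (41.0 to 243) and 71.2 (19.4 to 182). All unnamed nuclei together had their 7 and 4 UMIs of Crhr1 in 3 nuclei of each dataset, so these are not levels of the whole cluster. The part of the tectorial membrane genes in the root level of Crhr1 was not tested. With the Lgr5-led cluster alone standing for root the level was 25.5 and 19.8 CPM.

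Crhbp, which encodes the secreted protein that binds CRH and urocortin (chromosome 13 from 95431371 to 95444924, minus strand), was highest of the 6 classes in Reissner's membrane nuclei. It stood there at 1194 CPM (1089 to 1307) on 473 UMIs in MethFix and 1103 (1012 to 1200) on 539 UMIs in RNAlater. In the other 5 classes it stood between 2.32 and 11.4 CPM in MethFix and between 0 and 7.94 in RNAlater. The log2 ratio to the other classes was 7.58 (6.72 to 8.44) and 7.95 (7.17 to 8.73).

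In Reissner's membrane, 106 of 155 MethFix nuclei (68.4%, 60.4% to 75.6%) and 109 of 154 RNAlater nuclei (70.8%, 62.9% to 77.8%) had a Crhbp UMI, and 53.8% and 55.2% after thinning, against 0.634% and 1.95% of the deeper marginal nuclei at full depth. The levels outside Reissner's membrane were 0% to 0.958% of the level in it, within the 0% to 15.3% over which 3 of its marker genes ranged in those classes. A range this wide cannot tell carried-over RNA from expression. The 11 Reissner's membrane nuclei of the MethFix matrix alone had 20 UMIs of Crhbp, 1222 CPM (747 to 1888). No ligand of the system was counted at a measurable level. Crh and Ucn3 had 0 UMIs over the 6 classes in both datasets, Ucn had 1 in each, Ucn2 had 3 in each, and Crhr2, the type 2 receptor, had 1 and 2. Crhbp was the 1 gene of the 9 on the CRH list to pass the minimum of UMIs.

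The wider list of glucocorticoid response genes held 24 genes, of which 19 passed the minimum of UMIs. It includes Fkbp5 and Tsc22d3 and was chosen with earlier results of these data known, so its shares are no separate test. Past the fold in basal nuclei were 10 of the 19 (52.6% against 10.3% of all genes), namely Fkbp5, Tsc22d3, Ddit4, Zbtb16, Klf15, Cebpb, Dusp1, Glul, Cdkn1a and Klf9. The median log2 ratio of the 19 in basal nuclei was 1.39 in MethFix and 1.26 in RNAlater, against -0.14 and -0.13 over all genes tested. After Fkbp5 and Tsc22d3 the largest basal ratio was that of Ddit4, an inhibitor of mTORC1 signalling, at 38.5 CPM (30.6 to 47.9) and 36.2 (28.7 to 45.01).

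In marginal nuclei 6 of the 19 (31.6% against 8.9%) were past the fold, Sgk1, Dusp1, Cdkn1a, Mt1, Nfkbia and Pdk4. The median over the list there was -0.12 in MethFix and 0.17 in RNAlater, against 0.01 in both over all genes. Pdk4, a kinase that restrains pyruvate dehydrogenase, had the largest of these ratios, with 20.7 CPM (16.8 to 25.2) and 23.9 (19.3 to 29.2). The remaining calls were few, with Sgk1 and Pdk4 in root (Pdk4 on 3 and 4 UMIs), Zbtb16 in Reissner's membrane, Glul in intermediate and Anxa1 in spindle nuclei. In root nuclei the share was 10.5% against 6.13% of all genes. It was 5.26% in each of the others, against 4.98% in Reissner's membrane, 8.09% in intermediate and 5.53% in spindle nuclei. Anxa1, whose product annexin A1 mediates part of the anti-inflammatory action of glucocorticoids, stood at 2422 CPM (2237 to 2618) and 1976 (1783 to 2183) in spindle nuclei. Errfi1, Mt2, Per1 and Sesn1 were past the fold in no class.

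Several of these genes also answer to stress. On a list of 9 immediate early and heat shock genes, 6 passed the minimum. Of these, Jun, Hspa1a and Hspa1b were past the fold in marginal nuclei (50.0% against 8.9% of all genes). Jun was past it in spindle nuclei (16.7% against 5.53%) and Egr1 in basal nuclei (16.7% against 10.3%). The summed level of the 9 was 134 CPM in MethFix and 134 in RNAlater in marginal nuclei, 118 and 81.9 in spindle, 74.2 and 77.3 in basal, 54.4 and 47.6 in root, 45.8 and 43.2 in intermediate and 20.2 and 22.5 in Reissner's membrane nuclei, with Fosb at 0 in every class. The part of these genes in the marginal and basal calls was not tested. Median mitochondrial shares per nucleus were 1.29% in basal and between 0.229% and 0.596% in the other 5 classes of MethFix.

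**Figure D5:**
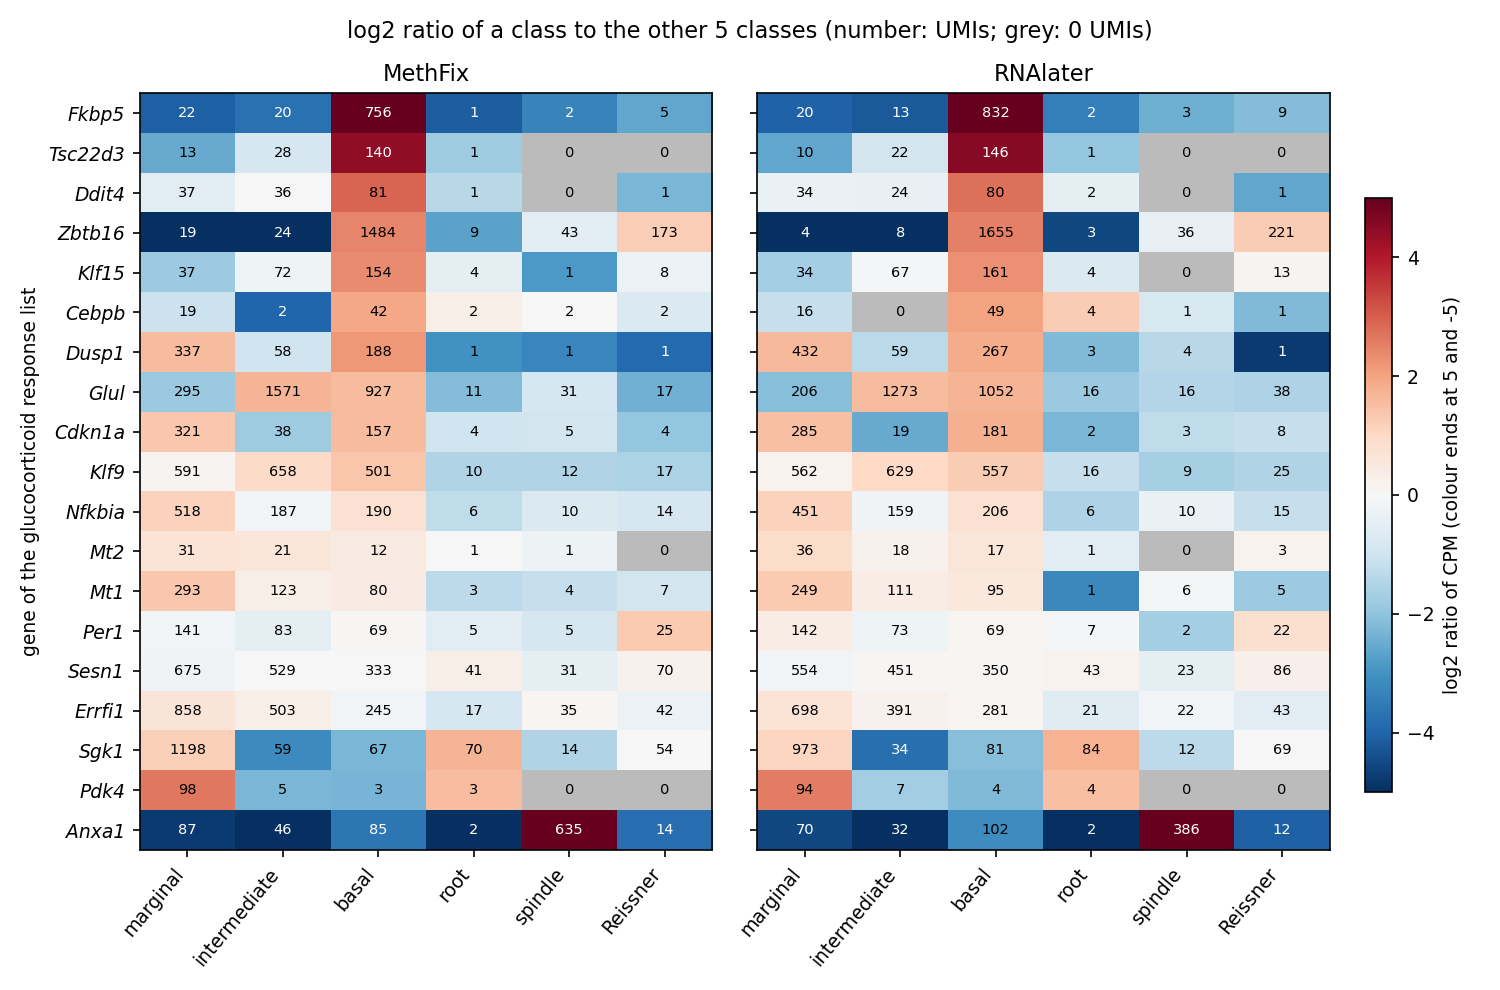
Colour shows the log2 ratio of CPM of each class to the mean of the other 5 classes (red above 0, blue below, colour ending at 5 and -5) for the 19 glucocorticoid response genes that passed the minimum of UMIs, in MethFix (left) and RNAlater (right). Numbers are UMIs, grey marks 0 UMIs, and genes are ordered by the smaller basal ratio of the datasets. The 10 genes past the fold in basal nuclei are the first 10 rows, and Sgk1, Pdk4 and Anxa1, at the bottom, are highest in marginal, root or spindle nuclei.

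Of 11 genes known to answer to the mineralocorticoid receptor, 8 passed the minimum. Past the fold in marginal nuclei were 3 (Sgk1 and Usp2 among them, 37.5% against 8.9% of all genes). In Reissner's membrane nuclei 2 were past it (Scnn1b and Usp2, 25.0% against 4.98%). Root (Sgk1), spindle (Nedd4l), intermediate (Atp1b1) and basal nuclei (Tsc22d3) had 1 each, or 12.5%. The shares of all genes were 6.13% in root, 5.53% in spindle and 8.09% in intermediate nuclei. Thus the class highest in Nr3c2 had 1 of the 8 past the fold (12.5% against 10.3% of all genes), and this 1 is also on the glucocorticoid list. The median log2 ratio of the 8 in basal nuclei was -0.85 and -0.87, against -0.14 and -0.13 over all genes tested.

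Sgk1, a kinase that raises sodium transport, stood at 317 CPM (247 to 401) and 333 (266 to 413) in root nuclei and at 253 and 247 in marginal nuclei, against 31.9 and 36.6 in basal nuclei. Scnn1b, a subunit of the epithelial sodium channel ENaC, stood at 331 CPM (276 to 392) and 366 (315 to 424) in Reissner's membrane nuclei. Its mean over the other 5 classes was 20.4 and 22.1 CPM, with less than 1 CPM in marginal and basal nuclei. Scnn1a and Scnn1g fell below the minimum of UMIs, and both were highest in Reissner's membrane nuclei, Scnn1a at 45.4 and 59.3 CPM and Scnn1g at 20.2 and 20.5. Atp1b1 was highest in intermediate nuclei, with 2696 (2641 to 2751) and 2851 CPM (2789 to 2913). It encodes a beta subunit of the sodium-potassium ATPase.

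All 10 genes on the list of receptor chaperones passed the minimum. Fkbp5 and Bag1 were past the fold in basal nuclei (2 of 10 against 10.3%), and Hsp90aa1 and Stip1 in marginal nuclei (2 of 10 against 8.9%). Bag1, a co-chaperone of Hsp70, stood at 109 CPM (95.7 to 124) and 151 (135 to 168) in basal nuclei, a log2 ratio of 2.07 or more. Fkbp4, which competes with the product of Fkbp5 for the receptor complex, was past the fold in no class. Of 8 receptor coregulators, all of which passed, 2 were past the fold in basal nuclei (2 of 8 against 10.3%) and the other 6 in none. The coactivator Ncoa3, 1 of these 2, stood there at 480 CPM (451 to 511) and 512 (482 to 543).

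Enzymes of steroid synthesis were nearly absent. Of 7, 5 were at 0 UMIs over the 6 classes in both datasets (Hsd3b1, Cyp21a1, Cyp11b1, Cyp11b2 and Cyp17a1). Cyp11a1, which makes pregnenolone from cholesterol, was past the fold in marginal nuclei with 44.8 CPM (39.0 to 51.2) on 212 UMIs in MethFix and 51.8 (44.9 to 59.4) on 204 in RNAlater, a log2 ratio of 4.12 or more (1 of 2 against 8.9%). Star, which carries cholesterol into mitochondria, was past the fold in spindle nuclei on 4 UMIs in each dataset (1 of 2 against 5.53%). Star ranged from 4.09 to 20.5 CPM over the classes.

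The genes whose pattern over the 12 values was most like that of a member were sought among 7046 genes with at least 200 UMIs in each dataset. For Fkbp5 these were Apod, Foxc1 and Foxp1 (Pearson's r of log2(CPM + 1) of 0.97 each), for Nr3c2 Uvrag, Actn1 and Pnkd (0.98, 0.97 and 0.97), for Nr3c1 Ttc7b, 4632427E13Rik and Gm26917 (0.97, 0.97 and 0.95), and for Crhbp Nkain3, Fam117b and Pdzrn4 (0.97, 0.96 and 0.96). The values share libraries and most of their nuclei, so these are descriptions without a test. Between members, r was 0.80 for Fkbp5 and Nr3c2, 0.50 for Fkbp5 and Nr3c1, and -0.73 for Crhbp and Nr3c1.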

How the data were processed

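Single nuclei of P30 stria vascularis were captured on the 10x Genomics platform in 1 MethFix and 1 RNAlater library. The authors deposited raw UMI counts per gene and barcode, without normalization, and the submitters' processing notes name Cell Ranger 3.0.1 and GRCm38. Whether intronic reads were counted is not given in the sources used here, and it affects how well long genes are seen in nuclei.

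From the counts, genes seen in 3 or more barcodes were kept, as were nuclei that had 200 genes or more, no more than 8000 UMIs and no more than 10% of UMIs from mitochondrial genes. Doublets were removed with Scrublet in scanpy 1.11.5 (6.23% of MethFix and 0.773% of RNAlater nuclei). Nuclei were clustered (4000 variable genes, 30 components, 10 neighbours, leidenalg 0.10.2, resolution 1 in MethFix, 1.5 in RNAlater) with the 79 list genes left out, and clusters were named from marker lists of 18 classes, so the names were rebuilt here. A name needed a mean log2 score of 1 or more, 3 or more markers detected, 0.7 of the highest score of its class and a margin of 0.1. Unnamed clusters and other classes stayed out of the ratios between the 6 classes and are given as values. UMIs were summed per class. Intervals are exact 95% Poisson, Clopper-Pearson or conditional binomial intervals, and those of ratios to the other 5 classes come from the Poisson variances. The intervals of ratios alone were tested on simulated Poisson counts, for genes with 200 or more expected UMIs. Genes with fewer UMIs and uneven counts between nuclei were not covered. A comparison group at 0 was set to 3 counts over the group.

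Genes named are the 8 members, up to 5 list genes past the fold by the smaller of their ratios, and the 3 most alike per member with at least 200 UMIs, and list genes outside this rule were named after their values were seen. Some genes that this rule takes are not reported here. The members and lists were chosen with earlier results of these data known. Alternatives used edgeR 4.0.16 (TMM), other filters, seeds, resolutions and barcode sets. Gene coordinates are those of GENCODE M21 on GRCm38, which holds 48349 of the 48816 identifiers, 41341 of them in the version used by the files. Overlapping and antisense genes cannot be told apart where the counting is not stated to use strand. Amino acid sequences were not used here.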

Additional observations from a re-analysis of the deposited data

How the results depend on the processing

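No paired analysis was possible because each preservation method had 1 library. Of 224 values under 16 alternative settings, 192 stayed within their counting interval or within 1.5 times the count, 32 moved and 0 reversed. Across the settings run, Nr3c2, Fkbp5, Tsc22d3 and Crhbp kept log2 ratios above 1, while Nr3c1 in basal nuclei ranged from 0.92 to 1.22 in MethFix and from 0.84 to 1.17 in RNAlater, so its call depends on the setting. With every nucleus thinned to 1000 UMIs the log2 ratios that moved were, in MethFix, 1.224 for Nr3c1, 1.294 for Nr3c2, 7.357 for Fkbp5 and 6.654 for Crhbp, and in RNAlater 1.168 for Nr3c1, 3.166 for Tsc22d3 and 5.333 for Crhr1 on 4 UMIs. The shares of nuclei fell by construction, since fewer UMIs were kept, to 53.79% and 55.15% for Crhbp, 27.27% and 29.52% for Fkbp5, 23.33% and 23.38% for Nr3c1, 70.91% and 72.18% for Nr3c2, 5.909% and 4.778% for Tsc22d3, and in RNAlater to 0.5119% for Hsd11b1 and 4.615% for Crhr1. Nr3c2 stood at 1.543 and 1.559 with TMM library sizes and at 1.731 and 1.678 with the other classes pooled by UMIs, a setting in which Fkbp5 in RNAlater stood at 5.95. In nuclei with a barcode in the MethFix matrix alone, Nr3c2 stood at 2.083 and Crhbp at 10.231 on 20 UMIs. For Crhbp this was set against 1 UMI in basal nuclei and 0 in marginal, intermediate and spindle nuclei. Both ratios also gave full class weight to the root nuclei of this set, which were fewer than 10. With a minimum of 200 UMIs, which left fewer genes to test, 684 genes were past the fold in basal, 558 in intermediate, 351 in root, 292 in spindle and 320 in Reissner's membrane nuclei. The main setting had 1139, 895, 678, 612 and 551 of 11063 genes tested. These moves are of counts and not of shares of the genes tested. Chosen after seeing the data, root nuclei of the Lgr5-led cluster alone gave 5.997 for Crhr1 in RNAlater on 3 UMIs, and both Crhr1 values in RNAlater are set against 3 counts pooled over the other classes and are no lower bound. Where no construction is named, the cause was not tested. Means over nuclei of CPM gave no ratio where the other classes were at 0. Few UMIs limit Crhr1 and Hsd11b1, and few nuclei limit root (72 and 69), spindle (97 and 57) and fibrocyte (89 and 17) values.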
